A study of Triticum aestivum with 12 samples.

Results

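The 200 genes described here were transcribed in the young grain of bread wheat and had much lower levels by mid grain filling, from no count at all in some to a clear remainder in others. Developing grains of the winter wheat cultivars TAM 111 and TAM 112 were collected from field-grown plants at 5 and 14 days after flowering (DAF), and polyadenylated RNA was sequenced in 12 libraries, 3 of each cultivar at each DAF. Each library held RNA of several grains of similar size from 1 inflorescence, so it mixes pericarp, endosperm and embryo, and fewer cells of a tissue cannot be told apart from less RNA per cell. The labels name no treatment, and cultivar and DAF are the only differences between the groups that they give. The genes were chosen from measured values. A gene with a TraesCS identifier had to reach 2 CPM (the count relative to the library total) in each of the 6 libraries of 5 DAF, which 32943 of 107891 did. These were ranked by the mean CPM at 5 DAF over the highest CPM in any library of 14 DAF, with 0.1 CPM added to both, and the first 200 were taken. The fall from 5 to 14 DAF is therefore what chose them, and it is described without a test.

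In the first days after flowering the wheat grain is mostly maternal pericarp around a small endosperm, which passes from a multinucleate syncytium to a cellular tissue while the embryo is still tiny. The pericarp then degenerates in its inner layers, and by mid grain filling the starchy endosperm makes up most of the kernel and accumulates starch and storage proteins. Bread wheat is hexaploid, and most of its genes have copies, called homeologs, on the A, B and D subgenomes. The deposited table gives positions and lengths of the genes but not their functions. Only the 3 genes placed in a transcription factor family by the study's tables of top-ranked network factors are therefore given a role.

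Library totals ran from 31916077 to 40464882 counts. Sample means, fold changes and CPM by library below use library sizes scaled with edgeR's TMM factors (0.767 to 1.19). The 200 genes together took 0.583% to 1.52% of the counts at 5 DAF, lowest in TAM 112 replicate 2 and highest in TAM 111 replicate 3, and 0.0234% to 0.0513% at 14 DAF, highest in TAM 112 replicate 3. All 200 passed the filter on low counts that kept 65080 features for testing. How reads with several matches were counted is not given in the sources used here, so values of near-identical homeologs are uncertain.

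The ratio used for ranking ran from 652 in the first gene to 8.44 in the last, with a median of 17, and it reached 50 in 38 genes and 100 in 19. In unscaled CPM, the mean level at 5 DAF lay between 3.65 and 1012 CPM (median 19.6), and the highest library of 14 DAF had a median of 0.803 CPM. Few of the genes were without any trace at 14 DAF. In 92 of them the highest library of 14 DAF exceeded 1 CPM, in 11 it exceeded 10 CPM, and only 6 had no count in any of the 6 libraries. In 24 no library of 14 DAF had more than 3 counts, a level taken as the floor of detection. A gene could thus enter through near absence at 14 DAF or through a high early level that left a clear remainder.

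**Figure D1:**
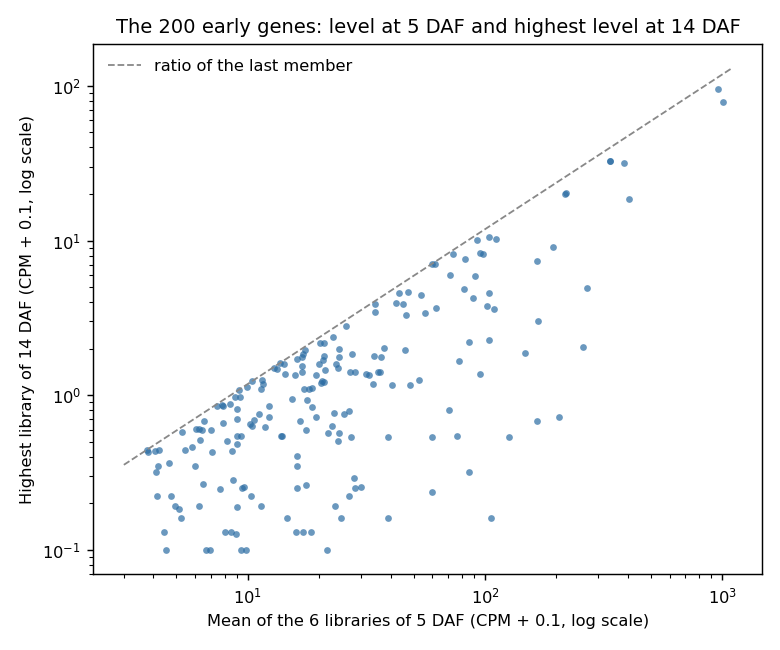
Each point is 1 of the 200 genes, with the mean CPM of the 6 libraries of 5 DAF on the x axis and the CPM of its highest library of 14 DAF on the y axis, both with 0.1 CPM added and on log scales. The points lie on or under the dashed line, the ratio of the last gene (8.44), and the points at the bottom are the 6 genes without a count at 14 DAF.

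The median fitted log2 fold change of the 200, 14 over 5 DAF, was -5.64 in TAM 111 and -5.33 in TAM 112, beside 0.04 and 0.01 over all genes tested, a difference that the choice of genes fixed in advance.

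TraesCS5B02G186700 ranked first. It spans 338959367 to 338967438 on chromosome 5B of the IWGSC RefSeq assembly 1.0, with 2 exon blocks (stretches of exon after its transcripts are merged). In TAM 111 at 5 DAF its libraries had 54.2, 94.1 and 317 CPM, and in TAM 112 they had 16.9, 3.15 and 154 CPM. At 14 DAF it had 1, 0 and 0 counts in TAM 111 and 0, 0 and 2 in TAM 112. The gene was thus near absence at 14 DAF in both cultivars, while its level at 5 DAF spanned a wide range within each cultivar, with replicate 3 the highest in both.

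The next genes in the ranking differed in how they came to be there. TraesCS1D02G412300 (rank 2, chromosome 1D, 473707702 to 473711180) had 103, 96.6 and 312 CPM in TAM 111 and 152, 83.3 and 441 CPM in TAM 112 at 5 DAF, and 8 to 20 counts in each library of 14 DAF. TraesCS4B02G098100 (rank 3, chromosome 4B) had 69.0, 85.1 and 192 CPM in TAM 111 and 18.5, 5.11 and 141 CPM in TAM 112. TraesCS5A02G196800 (rank 7, chromosome 5A) had 85.7, 110 and 421 CPM in TAM 111 and 24.1, 8.48 and 122 CPM in TAM 112. In all 3 of these genes replicate 3 was the highest library of its cultivar, as in the first.

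Other genes near the top did not share that shape. TraesCS4A02G288700 (rank 5, chromosome 4A) had 299, 161 and 110 CPM in TAM 111, highest in replicate 1, and 165, 53.7 and 173 CPM in TAM 112. TraesCS4D02G023500 (rank 11, chromosome 4D), which has 2 exon blocks as well and a similar exonic length (2583 against 2579 bases), had 146, 69.7 and 44.1 CPM in TAM 111 and 80.5, 27.8 and 72.2 CPM in TAM 112. The libraries of these 2 genes stand in the same order within TAM 111, and replicate 2 is the lowest of TAM 112 in both.

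TraesCS7D02G487400 (rank 8, chromosome 7D, 597652882 to 597654417) was the highest-ranked gene without a count in any library of 14 DAF. It had 52.6, 46.5 and 4.11 CPM in TAM 111 and 12.8, 4.94 and 7.36 CPM in TAM 112 at 5 DAF. Against a floor of 3 counts in each library of 14 DAF, its mean at 5 DAF was at least 324-fold higher in TAM 111 and at least 111-fold higher in TAM 112. TraesCS7B02G407400 (rank 9, chromosome 7B) has the same number of exon blocks (3) and resembled it in replicate 3 of TAM 111, with 48.0, 36.0 and 3.07 CPM there and 28.0, 19.6 and 8.82 CPM in TAM 112. In both genes replicate 3 was far below the other libraries of TAM 111.

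TraesCS1D02G232800 (rank 6), TraesCS2A02G405300 (rank 10) and TraesCS3A02G314000 (rank 12) complete the 12 highest ratios together with TraesCS2B02G500900 (rank 4), which is described with the cultivar comparison. TraesCS1D02G232800, a gene with 1 exon block, had 41.4, 50.3 and 53.3 CPM in TAM 111 and 34.2, 12.9 and 37.1 CPM in TAM 112. TraesCS2A02G405300 had 36.5, 16.2 and 7.21 CPM in TAM 111 and 20.9, 9.21 and 15.8 CPM in TAM 112. TraesCS3A02G314000 had 14.3, 20.3 and 21.2 CPM in TAM 111 and 17.1, 4.44 and 21.7 CPM in TAM 112. Replicate 2 of TAM 112 was the lowest of the 3 libraries of its group in each of these genes.

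**Figure D2:**
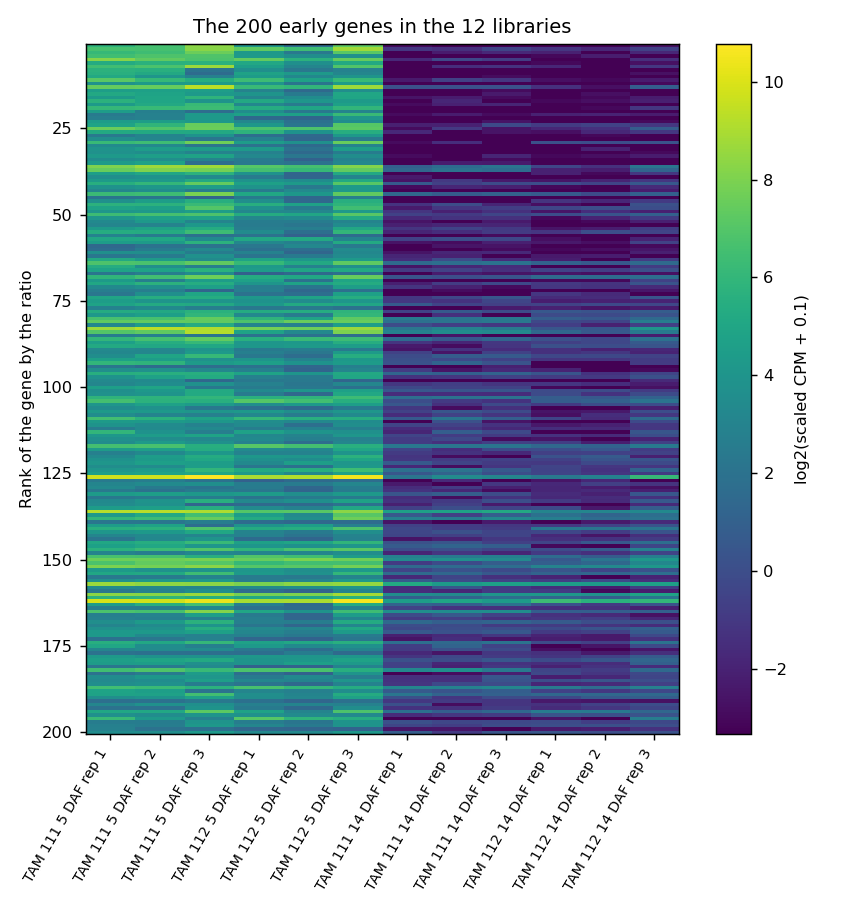
Rows are the 200 genes in rank order, columns are the 12 libraries, and the colour is the log2 of the scaled CPM with 0.1 added. The 6 columns of 5 DAF are brighter than the 6 columns of 14 DAF by construction, TAM 112 replicate 2 is the dimmest column of 5 DAF (median 8.16 CPM over the genes) and TAM 112 replicate 3 the brightest of 14 DAF (median 0.514 CPM).

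The abundance of the genes was uneven. The 10 with the most counts held 41.3% of the CPM of all 200 at 5 DAF. Compared per length, in TPM, which divides by exonic length as well as by library total, the mean at 5 DAF ran from 1.68 to 669 with a median of 22.0 over the 200, beside a median of 8.40 over all 32943 genes with 2 CPM in each library of 5 DAF. The most abundant by TPM was TraesCS2B02G471300 (669 TPM), followed by TraesCS2D02G449100 (634 TPM), TraesCS2B02G471400 (569 TPM), TraesCS2A02G295400 (529 TPM), TraesCS7D02G397500 (428 TPM), TraesCS2D02G476800 (396 TPM), TraesCS4D02G301300 (267 TPM) and TraesCS5A02G535100 (249 TPM). Of these 8 genes, 5 are on chromosomes of group 2.

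TraesCS2B02G471300 and TraesCS2B02G471400 are neighbours on chromosome 2B, at 668011585 to 668012451 and 668015539 to 668022997. The first had 414, 623 and 538 CPM in TAM 111 and 229, 203 and 399 CPM in TAM 112 at 5 DAF, and 134, 208 and 151 counts in TAM 111 and 53, 55 and 595 counts in TAM 112 at 14 DAF. The second had 181, 261 and 224 CPM in TAM 111 and 92.4, 69.7 and 165 CPM in TAM 112, and 68, 106 and 88 counts in TAM 111 and 6, 5 and 79 counts in TAM 112 at 14 DAF. In scaled CPM every TAM 111 library of 5 DAF lay above every TAM 112 library for both genes. Neither difference was called (edgeR adjusted p = 0.457 and 0.352). In unscaled CPM the cultivars overlapped for TraesCS2B02G471300, with 423 in TAM 111 replicate 1 and 427 in TAM 112 replicate 3. At 14 DAF TAM 112 replicate 3 stood above the other 2 libraries of its group in both genes.

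TraesCS2D02G449100 (chromosome 2D, 1 exon block) had 263, 410 and 427 CPM in TAM 111 and 133, 96.0 and 284 CPM in TAM 112, with 51, 80 and 118 counts in TAM 111 and 28, 12 and 155 counts in TAM 112 at 14 DAF. TraesCS2D02G476800 had 110, 169 and 130 CPM in TAM 111 and 68.5, 89.6 and 93.1 CPM in TAM 112. TraesCS5A02G535100 had 61.5, 98.6 and 167 CPM in TAM 111 and 47.9, 74.2 and 82.1 CPM in TAM 112. Of these 3 genes, only TraesCS2D02G476800 had cultivars that did not overlap.

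TraesCS4D02G301300 shows the kind of gene that entered with a clear level at 14 DAF. It had 404, 333 and 324 CPM in TAM 111 and 240, 324 and 353 CPM in TAM 112 at 5 DAF, and still 573 to 1093 counts in every library of 14 DAF. Its mean at 5 DAF was 12.5 times that at 14 DAF in TAM 111 and 13.2 times in TAM 112. TraesCS2A02G295400 had 981, 846 and 1330.5 CPM in TAM 111 and 485, 510 and 1503 CPM in TAM 112 at 5 DAF. At 14 DAF it had 662, 860 and 608 counts in TAM 111 and 3409, 2121 and 2338 counts in TAM 112, so its remainder at 14 DAF was higher in each TAM 112 library than in any TAM 111 library.

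What remained at 14 DAF was not spread evenly over the libraries. TAM 112 replicate 3 was the highest library of 14 DAF for 72 of the 200 genes (36%). It was so for 12.1% of the 32943 genes with 2 CPM in each library of 5 DAF. TAM 112 replicates 1 and 2 were the highest for 6.5% and 6%, beside 15.8% and 20.7%. TAM 111 replicates 1 to 3 were so for 19%, 19.5% and 13%, beside 9.7%, 21.1% and 20.6%. The highest library of 14 DAF divides the ratio used for ranking, so these shares are a description. In 4 of the 200, TAM 112 replicate 3 had at least 20 counts and at least 5 times the CPM of the next library. No other library of 14 DAF stood out in this way for any gene. TraesCS2D02G550500 had 0, 0 and 0 counts in TAM 111 and 3, 0 and 222 in TAM 112. TraesCS7D02G397500, a gene of 12 exon blocks, had 123, 299 and 247 counts in TAM 111 and 213, 310 and 2513 in TAM 112. The other two were TraesCS2D02G550700 and TraesCS4D02G364900. Without TAM 112 replicate 3 of 14 DAF, 169 of the 200 genes would still rank among the first 200. Genes outside the 200 that were called lower at 14 DAF in TAM 111 (edgeR's quasi-likelihood test, an absolute log2 fold change over 1 and a Benjamini-Hochberg adjusted p-value under 0.01) took 9.80%, 10.5% and 10.6% of the scaled counts in TAM 112 replicates 1, 2 and 3 of 14 DAF, and their part in the level of the 200 was not tested.

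A test of the stage change between cultivars was past the same thresholds for 1 of the 200 genes, beside 0.309% of all genes tested. The libraries of 14 DAF entered the choice of genes, so this is given as a description. The gene was TraesCS7D02G243300 (rank 88, chromosome 7D, 209520943 to 209522703, 1 exon block). It had 38.3, 35.2 and 33.3 CPM in TAM 111 and 17.5, 20.4 and 23.0 CPM in TAM 112 at 5 DAF, and 3, 1 and 10 counts in TAM 111 and 42, 37 and 42 counts in TAM 112 at 14 DAF. The order of the cultivars was thus opposite at the 2 stages, with no overlap between cultivars at either. The edgeR adjusted p-value was 0.00918, and the call was lost in 9 of the 12 fits with 1 library left out, at edgeR adjusted p-values of 0.0161 to 0.029. At 14 DAF, 15 of the 200 genes (7.5%, background 14.5%) differed between cultivars by the same thresholds, 10 higher in TAM 111 and 5 higher in TAM 112. The genes were chosen for low levels at 14 DAF, which bears on this share, so it too is a description.

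Within 5 DAF the 200 genes varied from library to library far more than the 32943 genes past the same minimum of 2 CPM. These were not matched to the 200 in level (median 8.40 TPM beside 22.0 TPM). The median ratio of the highest to the lowest library of 5 DAF was 4.08, beside 1.80 over the 32943 genes, and the median pooled SD of log2 CPM within cultivars was 0.709 beside 0.266. The rule takes the mean over libraries, so a high value in 1 library favours a gene, and this contrast is a description. The 2 cultivars shared a pattern. Replicate 3 was more than 2-fold above the mean of replicates 1 and 2 in both cultivars for 52 genes (26%), beside 182 (0.552%) of the 32943, and more than 2-fold below it in both for 7 genes (3.5%), beside 258 (0.783%). Across the 200 genes, which are not independent, the log2 ratio of replicate 3 to the other replicates in TAM 111 had a Pearson correlation of 0.742 with that in TAM 112, beside 0.541 across the 32943. The labels do not say what a replicate number marks.

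**Figure D3:**
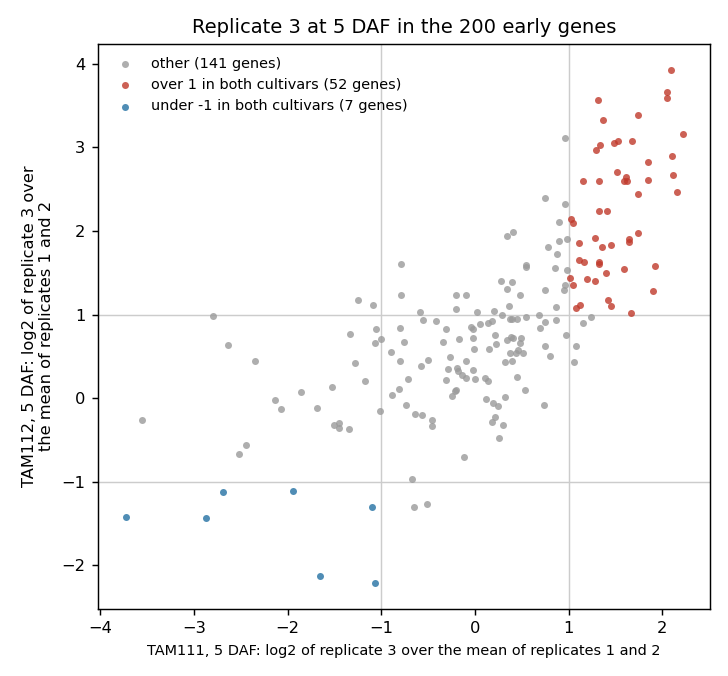
Each point is 1 of the 200 genes, and the axes give the log2 ratio of replicate 3 to the mean of replicates 1 and 2 at 5 DAF in TAM 111 (x) and TAM 112 (y). The 52 genes over 1 in both cultivars lie at the upper right and the 7 under -1 in both at the lower left.

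The 52 genes high in replicate 3 had median levels of 17.5, 24.0 and 59.5 CPM in TAM 111 replicates 1 to 3 and of 9.61, 6.57 and 41.8 CPM in TAM 112. The largest spread within cultivars of all 200 was found in 3 of them. These were TraesCS5B02G186700, already given, TraesCS6B02G122100 with 28.4, 59.4 and 182 CPM in TAM 111 and 17.4, 4.35 and 132 CPM in TAM 112, and TraesCS5A02G188600 with 128, 160 and 599 CPM in TAM 111 and 29.2, 9.85 and 249 CPM in TAM 112. In each of them TAM 112 replicate 2 was the lowest of the 6 libraries and TAM 111 replicate 3 the highest. TraesCS5D02G194400 (rank 13, 1 exon block) was a further gene of this kind, with 174, 178 and 634 CPM in TAM 111 and 75.3, 61.2 and 417 CPM in TAM 112.

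The 7 genes low in replicate 3 were TraesCS7B02G407400, TraesCS3B02G154200, TraesCS3A02G144400, TraesCS1D02G350900, TraesCS6D02G067900, TraesCS1A02G348000 and TraesCS2D02G550500. TraesCS3B02G154200 had 31.7, 33.6 and 10.3 CPM in TAM 111 and 35.3, 36.0 and 8.06 CPM in TAM 112. TraesCS1D02G350900 had 94.9, 101 and 45.8 CPM in TAM 111 and 139, 92.9 and 46.8 CPM in TAM 112. In none of the 7 was TAM 112 replicate 2 the lowest library.

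The smallest spread within cultivars was found in TraesCS6D02G094500, TraesCS7D02G243300 and TraesCS6D02G127100. TraesCS6D02G094500 had 20.0, 20.4 and 17.4 CPM in TAM 111 and 11.9, 9.46 and 11.4 CPM in TAM 112. TraesCS6D02G127100 had 19.7, 14.3 and 14.3 CPM in TAM 111 and 17.3, 15.9 and 17.0 CPM in TAM 112. Both keep a pooled SD of log2 CPM under 0.2 (0.152 and 0.191).

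TAM 112 replicate 2 was the lowest of all 6 libraries of 5 DAF for 117 genes (58.5%, beside 13.8% of the 32943), and TAM 111 replicate 3 was the highest for 89 (44.5%, beside 18.0%). In TAM 112 the median level of the genes was 11.8, 8.16 and 20.7 CPM in replicates 1 to 3, and in TAM 111 it was 20.0, 21.4 and 22.6 CPM. Other genes that change with stage also differed between libraries, but not always in the order of the 200. Outside the 200, the 8743 genes that were called higher at 14 DAF in TAM 111 took 4.13%, 4.78% and 3.39% of the scaled counts in TAM 112 replicates 1 to 3 of 5 DAF, most in replicate 2 and least in replicate 3. The 6666 that were called lower at 14 DAF in TAM 111 took 17.2%, 20.8% and 22.6%, least in replicate 1. In TAM 111 replicates 1 to 3 of 5 DAF, the 7661 called higher at 14 DAF in TAM 112 took 3.48%, 3.75% and 3.25%. The 5834 called lower at 14 DAF in TAM 112 took 21.5%, 24.4% and 24.1% there. The part of these genes in the order of the libraries was not tested. Without TAM 112 replicate 2 of 5 DAF, 144 of the 200 genes would still rank among the first 200, the lowest number for any library left out.

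The choice of genes did not rank by the difference between cultivars at 5 DAF. Its minimum of 2 CPM in each of these 6 libraries and its mean over them did use the values compared here. The comparison is therefore not independent of the choice. Most of the 200 genes had the lower mean in TAM 112, but few differences stood out from the spread between replicates. The fitted log2 fold change, TAM 112 over TAM 111, was below 0 for 176 of the 200 (88%) and had a median of -0.57, beside 0.02 over all genes tested and -0.02 over the 32943, of which 51.8% were below 0. The genes share the same 6 libraries and their differences are not independent. Of the library medians given above, that of TAM 112 replicate 3 (20.7 CPM) lay within the TAM 111 range, and the pooled SD of the library medians of log2 CPM within cultivars was 0.478. With p-values of edgeR's quasi-likelihood test adjusted over all genes by Benjamini-Hochberg, 2 of the 200 (1%) were called, both higher in TAM 111. The background was 3.39% of all genes tested (1.93% higher in TAM 111 and 1.45% higher in TAM 112) and 1.73% of the 32943. In this fit called genes were thus not more frequent here than elsewhere, which did not hold in every fit below. At an unadjusted p-value under 0.05, 36 genes (18%) passed, beside 26.8% of all genes tested. Every TAM 112 library lay below every TAM 111 library for 37 genes (18.5%, background 12.4% of all genes tested and 14.4% of the 32943) and above for 2 genes (1%, background 13.2% and 13.6%).

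The size of the median moved with single libraries and its direction did not. Leaving out TAM 112 replicate 2 gave -0.30, and leaving out TAM 111 replicate 3 gave -0.36. With TAM 112 replicate 3 left out the median was -0.97, and with both replicates 3 left out it was -0.90. The number of genes called was 10 (background 3.52%) when TAM 112 replicate 3 was left out, 5 (background 2.78%) when TAM 111 replicate 3 was, and 11 (background 2.93%) when both were. DESeq2's Wald test called 10 of the 200 (background 5.77%), and an adjusted p-value under 0.05 in edgeR gave 10 as well (background 5.94%). At 5 DAF the deviations of libraries with the same replicate number went together, and with the replicate number as a block 6 of the 200 genes were called, 5 higher in TAM 111 and 1 higher in TAM 112, beside 3.39% of all genes in that fit. In that fit the median log2 fold change was -0.67. The backgrounds of these alternative fits are over all genes tested and are not matched to the minimum of 2 CPM at 5 DAF. In the main fit that minimum lowered the background from 3.39% to 1.73%, so these numbers do not settle whether calls were more frequent among the 200.

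**Figure D4:**
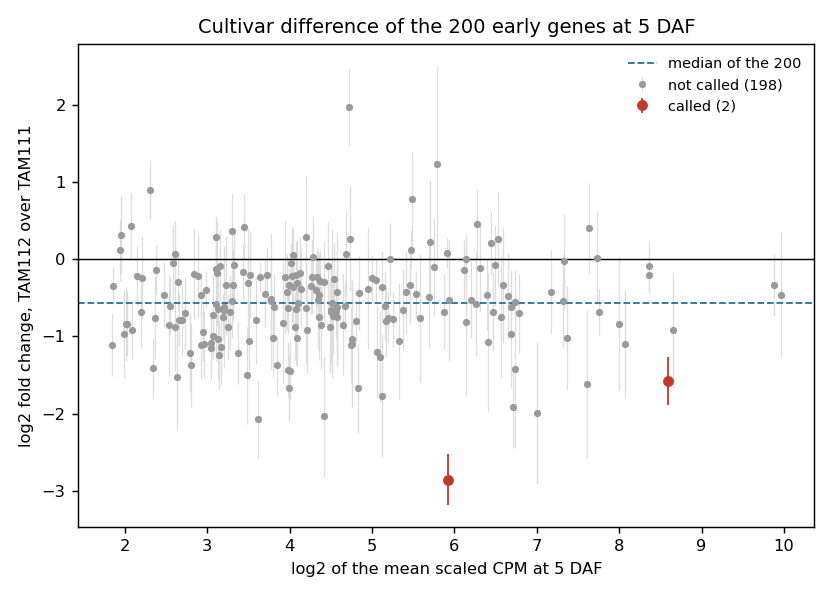
Each point is 1 of the 200 genes, with the log2 of its mean scaled CPM at 5 DAF on the x axis and its fitted log2 fold change, TAM 112 over TAM 111, on the y axis; bars are standard errors of the fit over 3 libraries in each group. Most points lie below 0, the dashed line marks the median of -0.57, and the 2 genes called are in red.

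TraesCS2B02G500900 (rank 4) showed the clearest difference. It is a short gene of 1 exon block, 344 bases long, at 695992642 to 695992985 on chromosome 2B. It had 88.4, 115 and 118 CPM in TAM 111 and 19.2, 11.9 and 13.3 CPM in TAM 112 at 5 DAF, so the means were 107 ± 16 and 14.8 ± 3.88 CPM (SD, n = 3 each). The cultivars did not overlap, and the log2 fold change was -2.85 (SE 0.328, edgeR adjusted p = 0.000373). At 14 DAF it had no count in TAM 111 and 1, 5 and 0 counts in TAM 112. The call held with each library left out in turn, with the block and under every other setting tried.

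TraesCS2A02G130900 (rank 136), also with 1 exon block, at 78598531 to 78600485 on chromosome 2A, had 598, 611 and 523 CPM in TAM 111 and 129, 138 and 314 CPM in TAM 112 at 5 DAF. The means were 577 ± 47.4 and 193 ± 104 CPM (SD, n = 3 each), and the log2 fold change was -1.58 (SE 0.310, edgeR adjusted p = 0.00799). Its call was lost when any library other than TAM 112 replicate 3 of 5 DAF was left out, with edgeR adjusted p-values of 0.0105 to 0.0359, and also with unscaled library sizes (0.0128) or the libraries of 5 DAF alone (0.0478), while with single libraries left out the log2 fold change stayed between -1.35 and -2.11. At 14 DAF it still had 723, 756 and 1036 counts in TAM 111 and 353, 357 and 372 in TAM 112, the same order of the cultivars as at 5 DAF.

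The block added 4 genes to these 2. It assumes a pairing of libraries that the labels do not state and that was read from these same counts. The adjusted p-values with the block hold only if that pairing is real. TraesCS2A02G518100 (rank 21, chromosome 2A, 741378571 to 741379512) was the 1 gene higher in TAM 112. It had 5.59, 7.19 and 19.4 CPM in TAM 111 and 26.1, 25.3 and 75.3 CPM in TAM 112, and replicate 3 was the highest library of both cultivars. Without the block its log2 fold change was 1.97 (SE 0.491, edgeR adjusted p = 0.0293), and with the block it was 1.99 (edgeR adjusted p = 0.000121). TraesCS1A02G404600 (rank 165, chromosome 1A) had 111, 98.6 and 287 CPM in TAM 111 and 32.7, 14.8 and 84.4 CPM in TAM 112, and its log2 fold change with the block was -2.08 (edgeR adjusted p = 0.000538). TraesCS5B02G268300 and TraesCS7D02G082800 were the other two, both higher in TAM 111, at -1.08 and -1.36 with the block. In TraesCS1A02G404600 and TraesCS7D02G082800 the replicates stood in the same order in both cultivars, with replicate 3 the highest.

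TraesCS4B02G011600 (rank 100, chromosome 4B, 7499877 to 7502718) had 25.1, 29.5 and 4.93 CPM in TAM 111 and 5.68, 4.88 and 3.55 CPM in TAM 112. Its log2 fold change of -2.07 (SE 0.499, edgeR adjusted p = 0.0249) rested on 2 libraries of TAM 111, since replicate 3 lay within the TAM 112 range. At 14 DAF it had 21, 16 and 17 counts in TAM 111 and 1, 0 and 2 in TAM 112. This gene and those added by the block were picked out after their values were seen.

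**Figure D5:**
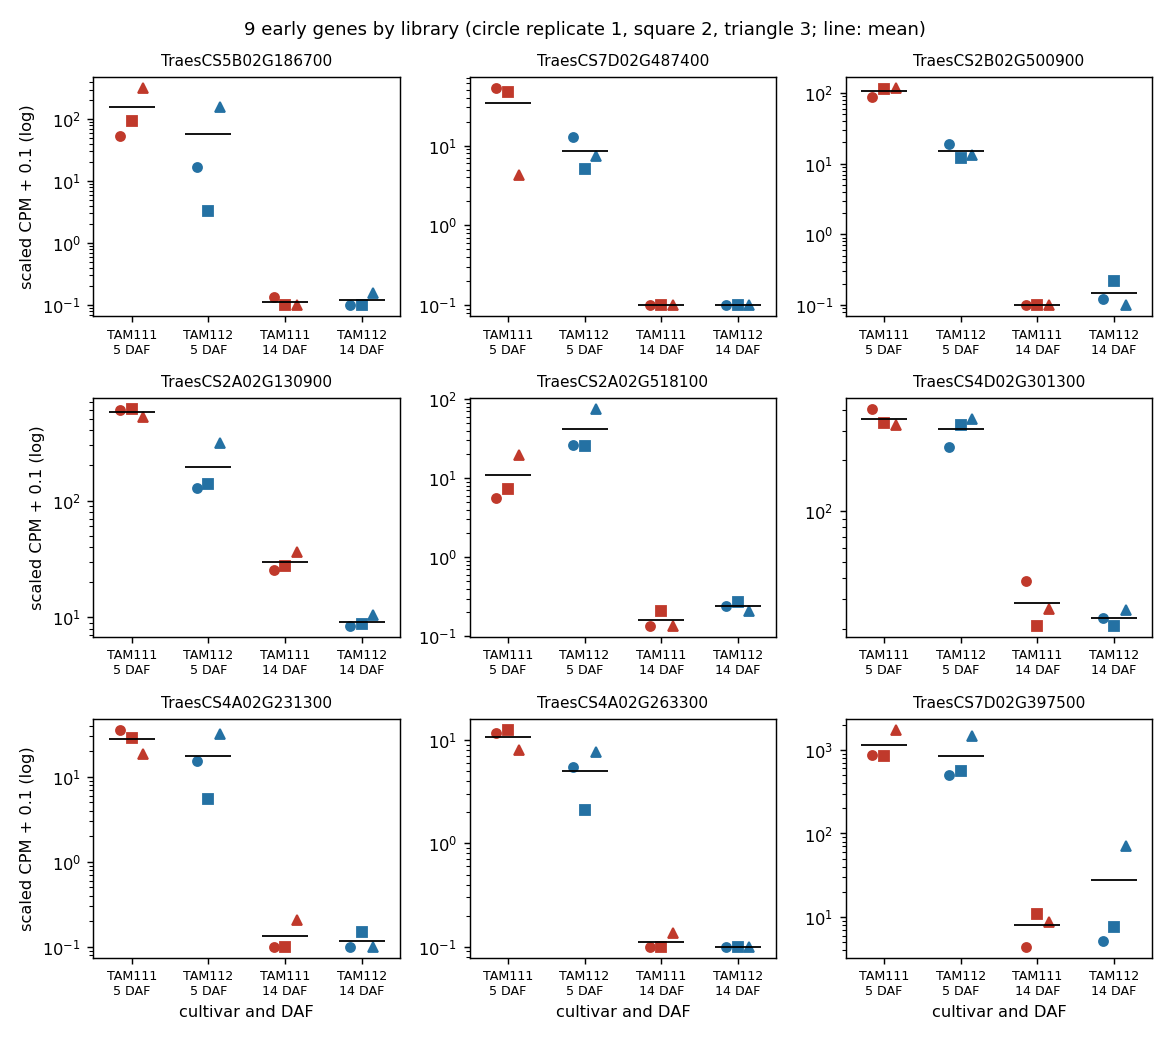
Scaled CPM with 0.1 added, on log axes that differ between panels, for 9 of the genes by cultivar and DAF (TAM 111 red, TAM 112 blue; circle, square and triangle are replicates 1, 2 and 3; the line is the mean of the 3 libraries). TraesCS2B02G500900 separates the cultivars at 5 DAF, TraesCS2A02G518100 is higher in TAM 112, and TraesCS7D02G397500 has 1 high library in TAM 112 at 14 DAF.

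The study's network tables list only the top-ranked transcription factors of each gene group it examined, and its full network results are not used here. Of the 34 factors listed, 5 had 2 CPM in each library of 5 DAF and 3 are among the 200 genes. The study chose these factors on these samples, so they are not independent evidence. Of the 34, these 3 were called lower at 14 DAF in both cultivars, which the choice of genes fixed (background 10.6% in TAM 111 and 9.27% in TAM 112), while 17 were called higher in TAM 111 (background 13.4%) and 15 in TAM 112 (background 11.8%).

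TraesCS4A02G231300 (rank 15, chromosome 4A, 540600151 to 540604505, 9 exon blocks), named TaHDZ30A, encodes a homeodomain-leucine zipper factor of class IV, a class known in Arabidopsis for its role in the epidermis. It had 35.8, 28.9 and 18.6 CPM in TAM 111 and 15.4, 5.39 and 31.8 CPM in TAM 112 at 5 DAF, and 0, 0 and 3 counts in TAM 111 and 0, 2 and 0 in TAM 112 at 14 DAF. The cultivars overlapped at 5 DAF, with a log2 fold change of -0.66 (SE 0.523, edgeR adjusted p = 0.444). The other factors of the same class in the tables, TraesCS3A02G325800 and TraesCS3B02G354900, ranked 9170 and 9683 by the same ratio. Their fitted log2 fold changes, 14 over 5 DAF, were -0.62 and -0.57 in TAM 111 and -3.56 and -3.37 in TAM 112, none of them called.

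TraesCS4A02G263300 (rank 34, 575776524 to 575781443 on chromosome 4A) and TraesCS4D02G051600 (rank 95, 27395032 to 27399921 on chromosome 4D) encode basic helix-loop-helix factors, a large family of DNA-binding proteins in plants. The first had 11.5, 12.5 and 7.94 CPM in TAM 111 and 5.34, 1.98 and 7.57 CPM in TAM 112, and 1 count in all libraries of 14 DAF together. The second had 12.6, 13.8 and 8.96 CPM in TAM 111 and 6.57, 2.20 and 8.47 CPM in TAM 112, and 0 to 13 counts in the libraries of 14 DAF. The 6 libraries of 5 DAF stood in the same order in both genes. The log2 fold changes between cultivars at 5 DAF were -1.10 (SE 0.424, edgeR adjusted p = 0.132) and -1.03 (SE 0.519, edgeR adjusted p = 0.225), with TAM 112 below TAM 111 in each replicate number.

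TraesCS4B02G051500 (rank 39, chromosome 4B), which is not among the 34 factors, has 4 exon blocks like these 2 and an exonic length of 1833 bases against their 1805 and 1850. It had 12.6, 14.6 and 10.2 CPM in TAM 111 and 5.78, 2.29 and 7.76 CPM in TAM 112, and 3 counts in all libraries of 14 DAF together. Its log2 CPM over the 6 libraries of 5 DAF correlated with those of the other two at 0.993 and 0.990, and theirs with each other at 0.998. These correlations are over the same 6 libraries, and whether reads of one gene were counted on another was not tested.

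Other members had look-alikes on another subgenome as well. The files do not pair homeologs, so pairs were formed from members on different chromosomes of 1 group with at least 3 exon blocks, block numbers within 1 of each other and exonic lengths within 1.1 times. Of the 37 pairs, 18 (48.6%) had a correlation over 0.9 across the 6 libraries of 5 DAF, with a median of 0.879, beside 12.2% and a median of 0.479 over the 18922 pairs of members on different chromosomes. A gene can stand in several pairs, and the 37 pairs hold 43 genes and the 18 pairs 27. Pairs of the same kind among genes outside the 200 were not compared. TraesCS2D02G360100 and TraesCS2B02G380600 (5 exon blocks each) had 116, 106 and 161 CPM and 99.7, 101 and 172 CPM in TAM 111, and 68.4, 35.8 and 155 CPM and 57.9, 30.3 and 155 CPM in TAM 112 (correlation 0.995). TraesCS2D02G545800 and TraesCS2A02G544800, the members with the most exon blocks (24 each), had a correlation of 0.987, with 127 and 148 CPM in TAM 111 replicate 3.

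Not every pair of this kind moved together. TraesCS7A02G404200 and TraesCS7D02G397500 have 12 exon blocks each and exonic lengths of 3027 and 3013 bases, and their correlation was -0.874. TraesCS7A02G404200 had 95.6, 53.8 and 47.4 CPM in TAM 111 and 131, 92.2 and 45.3 CPM in TAM 112, where TraesCS7D02G397500 had 871, 857 and 1744 CPM and 507, 566 and 1447.5 CPM. The libraries with most of the 7D gene had least of the 7A gene.

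The genes were spread over all 21 chromosomes, with 64 on the A, 63 on the B and 72 on the D subgenome and 1 unplaced. Group 2 chromosomes held 42 (21%, beside 16.3% of the 32943) and group 5 chromosomes 41 (20.5%, beside 16.5%). Few of the genes adjoined each other. There were 8 pairs of members at most 5 genes apart, 16 genes in all, and no larger run. Since the pairs are of equal size, the 3 with the best-ranked gene are given. TraesCS2B02G471300 and TraesCS2B02G471400 form one. TraesCS1D02G412300 and TraesCS1D02G412400 form another, of which the second had 8.17 to 15.4 CPM at 5 DAF without the high replicate 3 that its neighbour had in TAM 111. TraesCS5A02G541800 and TraesCS5A02G542000 form the third, with 45.3, 65.5 and 166 CPM and 41.9, 40.6 and 80.5 CPM in TAM 111 and with 25.6, 20.2 and 139 CPM and 11.2, 3.32 and 63.6 CPM in TAM 112. Of the 390 genes that directly adjoin a member, 266 were tested, and 17.3% of these were called lower at 14 DAF in TAM 111 (background 10.6% of all genes tested) and 16.5% in TAM 112 (background 9.27%). The share with detectable levels at 5 DAF was not matched between neighbours and other genes.

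The genes were simpler in structure than others. A single exon block made up 65 of them (32.5%, beside 10.6% of the 32943), and 1 or 2 blocks made up 58% beside 23.8%. Their median number of blocks was 2 beside 5, and their median exonic length was 1505.5 bases beside 1718. Of the 52 genes high in replicate 3, 20 (38.5%) had 1 exon block, as had 45 (31.9%) of the other 141 and 0 of the 7 genes low in it. Whether these shares differ was not tested. Another feature overlapped 5 of the genes, in 3 cases on the opposite strand (TraesCS1B02G090700, TraesCS3D02G267700 and TraesCS3B02G300900), and the strand setting of the counting is not given in the sources used here, so the counts of these are uncertain.

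At the edge of the ranking, TraesCS3B02G135800, the last but one, had 7.34, 3.82 and 3.55 CPM in TAM 111 and 2.43, 2.32 and 2.08 CPM in TAM 112 at 5 DAF, with 0 to 11 counts at 14 DAF. TraesCS3D02G223900 (rank 200, ratio 8.44) had 11.4, 12 and 19.0 CPM in TAM 111 and 9.69, 9.77 and 17.5 CPM in TAM 112, with 12 to 54 counts at 14 DAF. The first genes left out were TraesCS1D02G107700 (ratio 8.37) and TraesCS7D02G078800 (ratio 8.31), with unscaled mean levels of 8.28 and 7.40 CPM at 5 DAF. No gap in the ratio thus separates the 200 from the genes that follow.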

How the data were processed

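The authors trimmed the reads, aligned them to the IWGSC RefSeq assembly 1.0 with HISAT2 and used featureCounts with annotation 1.1 for counting. The deposited values are whole-number counts for 120744 features in 12 libraries, neither normalized nor filtered, with the position and exonic length of each gene; 0 columns of library values were left out. Libraries were grouped by the cultivar and day in their labels. Labels do not say that libraries of a group came from separate plants, so p-values measure the spread between these libraries.

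The fit was made with edgeR 4.0.16 in R 4.3.3 (filterByExpr, TMM factors, 1 coefficient per group, quasi-likelihood F test over 12 libraries, common biological coefficient of variation 0.3) and Benjamini-Hochberg adjustment over 65080 features. The cut-off values (1 for the absolute log2 fold change, 0.01 for the adjusted p-value) are those of the study, which applied them to fold changes shrunken with ashr and p-values weighted with IHW, whereas here they were applied to unshrunken edgeR values. Standard errors are the absolute log2 fold change over the square root of F. A DESeq2 1.42.0 Wald test was an alternative. Scripts were tested on simulated data.

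Replicate numbers were taken to pair the libraries of 5 DAF, since the deviations of same-numbered libraries from their cultivar means correlated at 0.365, 0.34 and 0.528. The deviations of a group sum to 0, so these correlations are not separate evidence. Neither the labels nor the study state such a pairing, and it was read from the same counts that were then tested with the block. The fit with the block also held block terms for 14 DAF, where same-numbered libraries of the cultivars correlated at 0.107, -0.223 and -0.0744. Elsewhere the correlations ran from -0.283 to 0.107.

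The 200 genes, the gene lists and the tests were chosen with earlier results of these data known. Named genes are the 12 with the highest ratio, the 8 most abundant by TPM, those called between cultivars, ranks 199 to 202, 3 runs of neighbours, the 3 most and 3 least variable within cultivars, and others named after their values were seen. Lists of functions, tissue markers and promoter words could not be applied, because identifiers of the deposited table had no match in the reference table used here, so the labelled tissue was not checked against markers and no sequences are shown.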

Additional observations from a re-analysis of the deposited data

Results flagged for a closer look

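TraesCS7D02G243300 was singled out because its change from 5 to 14 DAF differed between the cultivars. The difference, the log2 change in TAM 112 minus that in TAM 111, was 3.401 (SE 0.498). With each library left out in turn it lay between 2.95 and 4.57, and it was no longer past the threshold on the adjusted p-value in 9 of these 12 fits. In all 3 libraries of each stage the order of the cultivars was the same, TAM 111 above TAM 112 at 5 DAF and below it at 14 DAF. The libraries of 14 DAF, which entered the choice of the genes, held at most 10 counts in TAM 111, so the size of the change there rests on few reads.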

How the results depend on the processing

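The number of the 200 genes called between cultivars at 5 DAF was 2. It was 1 with library sizes alone, 1 with the 6 libraries of 5 DAF alone, 6 with the replicate block within each stage, 10 with an adjusted p-value under 0.05, 10 with DESeq2 and 1 to 10 with each library left out in turn. It was 11 without both replicates 3 of 5 DAF, a setting added after the data were seen. Over all genes tested, DESeq2 called 3757 (5.77%), the adjusted p-value under 0.05 gave 3866 (5.94%), and the edgeR fit called 2203. The share over all genes is not given here for library sizes alone, the libraries of 5 DAF alone or most fits with 1 library left out. The numbers called in those fits are therefore not set against a background. The median log2 fold change kept its sign, from -0.97 to -0.30 with a library left out, and the block, at -0.67, did not change its direction. Of the genes, 126 stayed among the first 200 when 5 CPM was required in each library of 5 DAF, and at least 144 with any 1 library left out. The cultivar difference changed sign in some fits with a library left out, none of them called: it ran from -0.53 to 1.18 for TraesCS1D02G412300, from -0.78 to 0.39 for TraesCS2A02G405300, from -0.84 to 0.0813 for TraesCS4D02G023500, from -0.78 to 0.0623 for TraesCS3A02G314000, from -3.04 to 0.22 for TraesCS6B02G122100, from -2.01 to 0.16 for TraesCS5A02G541800, from -0.0214 to 0.226 for TraesCS6D02G127100 and from -0.54 to 0.0727 for TraesCS3D02G223900. Without both replicates 3 it was -0.0322 for TraesCS6D02G127100. The cause of these changes was not tested. Levels of 3 counts or fewer at 14 DAF cannot be told from absence, and a count of 0 allows up to 3.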
